A study of Arabidopsis thaliana with 9 samples.

Results

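Cyclins, cyclin-dependent kinases (CDKs) and the proteins that hold these kinases back were followed as a set of 42 genes in seedlings of the plant Arabidopsis thaliana. The set was named by locus code from gene families, with earlier results of these data known. It held 24 cyclin genes (7 CYCA, 8 CYCB and 9 CYCD), 5 kinase genes (1 CDKA and 4 CDKB), 7 KRP genes, 5 genes of the SIM/SMR family and WEE1. The SIM/SMR genes of the set are not the whole family, and SMR7 is not among them. All 42 were among the 22903 locus codes in the expression tables. Of these, 39 averaged at least 1 CPM (the reads of a gene scaled to the reads counted over all genes of the library) across the 9 libraries and were tested, and CYCA2;1, CYCD7;1 and SMR5 lay under that level.

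The libraries came from 3 genotypes with 3 libraries each: the mutants aar2-1 and aar2-2 and the wild type, all 14 days old and grown on MS medium with 16 h of light and 8 h of darkness. Total RNA of seedlings was made into mRNA libraries and sequenced. The labels name the alleles of AAR2 but give neither the lesions nor the background accession, and they do not say whether plants were pooled. The libraries are called biological replicates without further detail, so the p-values measure the spread between these libraries.

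A plant cell enters and passes the cell cycle through complexes of a cyclin with a CDK. CYCD cyclins act with CDKA at the start of the cycle, where they inactivate the retinoblastoma-related protein RBR and so free E2F factors to switch on DNA replication genes, CYCA cyclins act from S phase onward, and CYCB cyclins with CDKA and CDKB drive mitosis. KRP and SIM/SMR proteins bind and inhibit these complexes, and loss of mitotic CDK activity leads many Arabidopsis leaf cells from division into endoreduplication, in which DNA is copied without division. The WEE1 kinase restrains CDKs by phosphorylation when replication is disturbed.

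Depth ran from 24471217 to 35266334 reads over genes, and it went with genotype: aar2-1 had 29163704 to 31304548 reads, aar2-2 had 32392645 to 35266334 and wild type had 24471217 to 27715504. AAR2 itself, which in yeast helps to assemble a part of the spliceosome, had 7.33, 5.49 and 5.30 CPM in aar2-1 and 5.28, 4.36 and 4.11 CPM in aar2-2, against 7.64, 7.11 and 8.27 CPM in wild type. It was lower in aar2-2 (log2 fold change -0.64, adjusted p = 0.00908), whereas aar2-1 overlapped wild type and missed the threshold (-0.31, adjusted p = 0.101). Leaf transcripts were abundant (summed level of 3 leaf genes 24801 to 29800 CPM). The root hair genes COBL9, EXPA7 and EXPA18 lay at or below 0.686 CPM and the root meristem genes PLT1 and PLT2 at or below 0.163 CPM in all 9 libraries, although the material is labelled as seedling. The whole root list of 5 genes summed to 3.26 to 5.42 CPM in aar2-1 and 3.46 to 4.504 CPM in aar2-2, against 2.71 to 4.82 CPM in wild type, and PRP3, a cell wall protein gene, was its member high enough to test. Of the root meristem list, SHR and SCR were detected in every library. In such bulk RNA, fewer cells of a type and less RNA per cell cannot be told apart.

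Across the set as a whole, the number of changed genes was close to that of the transcriptome. In aar2-1, 11 of 39 members passed an adjusted p of 0.05 (28.2%), against 25.1% of all 18838 tested genes. In aar2-2, 9 of 39 did (23.1%), against 21.5% of all tested genes. These shares near the background say nothing particular about the set. By direction, 9 members were higher and 2 lower in aar2-1, where 11.5% and 13.6% of all tested genes were higher and lower. In aar2-2 the 9 called members were all higher, where 12.1% of all genes were higher and 9.4% lower. With TMM scaling of the libraries, the split became 9 higher and 4 lower in aar2-1 and 9 higher and 2 lower in aar2-2. The median log2 fold change over the 39 members was 0.11 in aar2-1 and 0.20 in aar2-2, beside medians of -0.00 and 0.03 over all tested genes. The 2 comparisons share the wild-type libraries, so their values are given side by side. CYCB1;1, CYCB1;2, CYCB2;3, CYCB2;4, CYCD3;2, CYCD3;3, KRP6 and SMR4 were higher in both mutants, which is 8 of 39 members where 6.4% of all tested genes were higher in both. No member was lower in both under the main settings, where 7.17% of all tested genes were. Some alternatives did call members lower in both. These were CDKA;1 and KRP4 with TMM scaling, CDKA;1 with quantile normalization and with edgeR, and CDKA;1 and CYCD2;1 without wild-type replicate 2. Wild-type replicate 1 mattered most to these counts: without it, 7 members were called in aar2-1 and 5 in aar2-2.

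**Figure D1:**
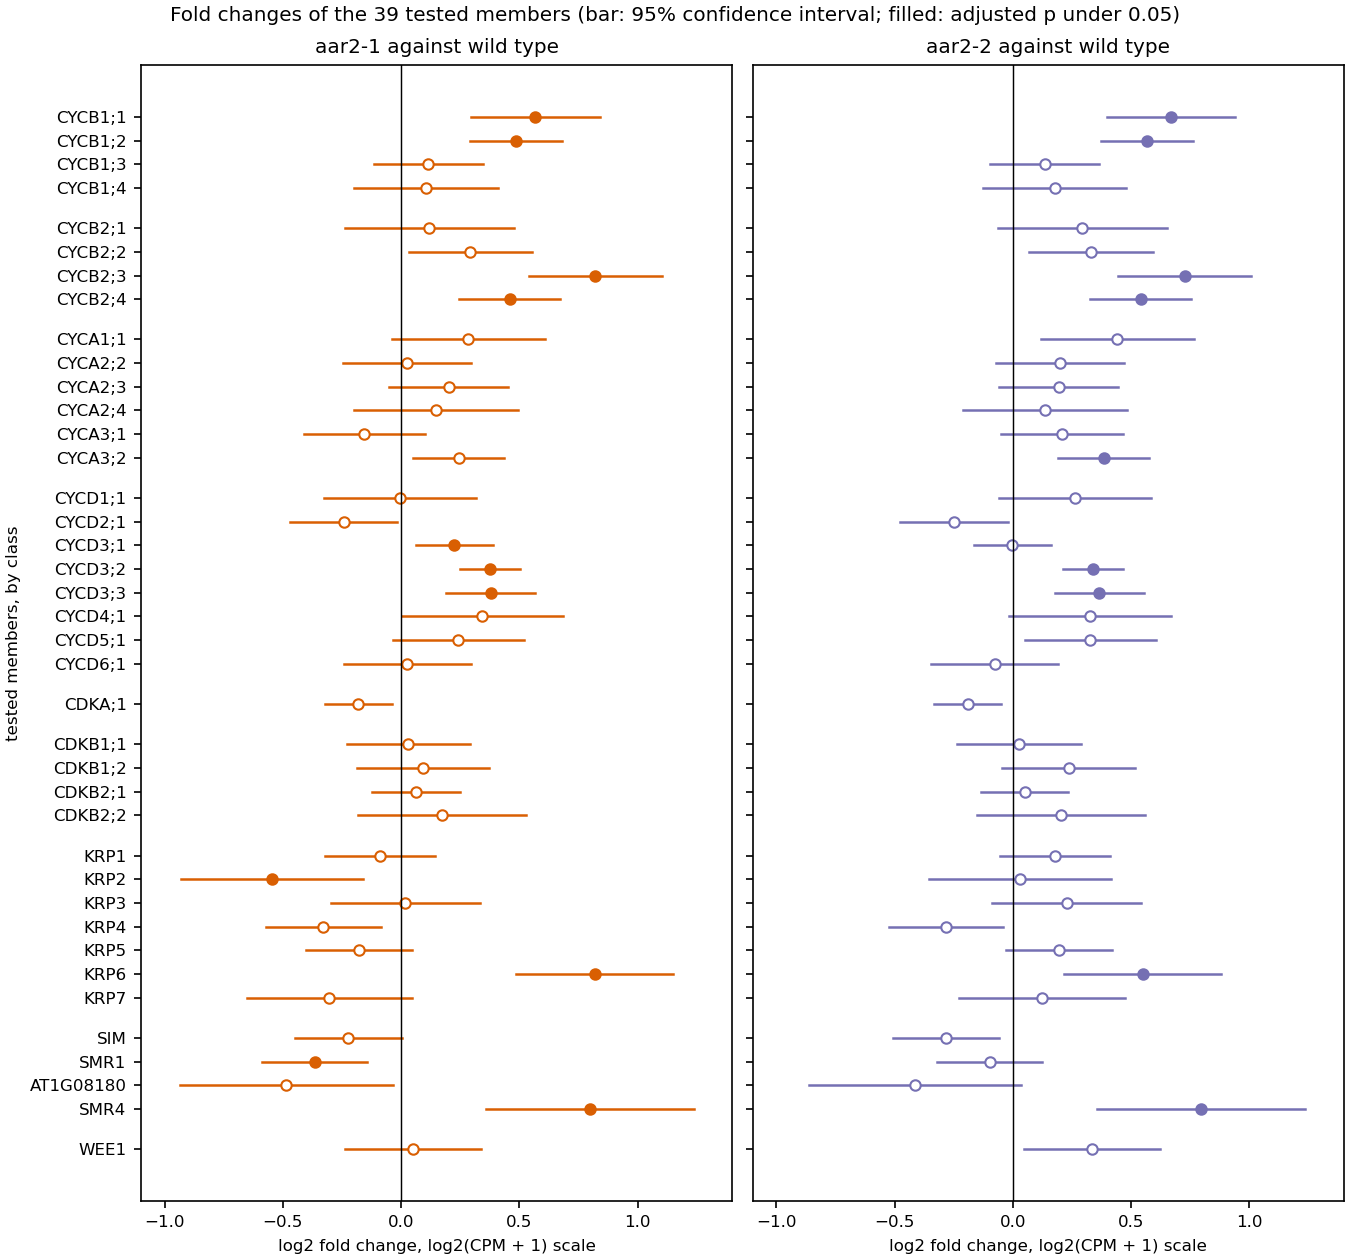
Log2 fold change of each of the 39 tested members in aar2-1 (left) and aar2-2 (right) against wild type, on the log2(CPM + 1) scale, with 95% confidence intervals. Filled points passed an adjusted p of 0.05. The filled points sit mainly among the CYCB and CYCD3 genes, KRP6 and SMR4, to the right of 0, and those of KRP2 and SMR1 in aar2-1 lie to the left.

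Of the 8 genes of mitotic B-type cyclins, 4 were higher in each mutant, where 11.5% of all tested genes were higher in aar2-1 and 12.1% in aar2-2. CYCB1;1, CYCB1;2, CYCB2;3 and CYCB2;4 rose in both, and the fold changes of the other 4 were positive but did not pass the test. The same 4 genes were called under every alternative scaling, filter, test and left-out library in both mutants. The median log2 fold change over the 8 genes was 0.38 in aar2-1 and 0.44 in aar2-2. Their summed level was 90.2, 70.8 and 73.1 CPM in aar2-1 and 82.6, 81.0 and 78.9 CPM in aar2-2, against 53.7, 55.7 and 57.5 CPM in wild type. Every mutant library was above every wild-type library in this sum, and aar2-1 replicate 1 was the highest of all 9.

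CYCB1;1 (AT4G37490, chr4:17621886-17624308, minus strand) is the cyclin most used to mark cells between G2 and mitosis, and it is also known to be induced by DNA damage through the factor SOG1. It had 10.4, 7.65 and 7.63 CPM in aar2-1 and 8.64, 9.91 and 8.99 CPM in aar2-2, against 5.72, 5.70 and 4.79 CPM in wild type. The mutant libraries lay above the wild-type libraries without overlap, where 19.8% of all tested genes lay wholly above wild type in aar2-1 and 25.1% in aar2-2. The log2 fold change was 0.57 in aar2-1 (SE 0.12, adjusted p = 0.00991) and 0.67 in aar2-2 (SE 0.12, adjusted p = 0.00634). CYCB1;2 (AT5G06150, chr5:1859279-1861703, minus strand), the B-type cyclin with the highest level per kilobase of transcript in wild type (9.78 CPM per kb), had 28.6, 23.2 and 22.9 CPM in aar2-1 and 26.5, 26.8 and 25.4 CPM in aar2-2, against 16.7, 18.0 and 17.5 CPM in wild type. Its groups did not overlap either, and its log2 fold changes were 0.49 (SE 0.09, adjusted p = 0.00457) in aar2-1 and 0.57 (SE 0.09, adjusted p = 0.00324) in aar2-2.

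CYCB2;3 (AT1G20610, chr1:7134659-7137828, minus strand) showed the largest fold change of the 8 in both mutants. It had 14.2, 10.2 and 12.2 CPM in aar2-1 and 11.1, 10.6 and 12.1 CPM in aar2-2, against 5.84, 5.99 and 7.55 CPM in wild type. The mean was 12.2 ± 2.00 CPM in aar2-1 and 11.3 ± 0.748 CPM in aar2-2, against 6.46 ± 0.945 CPM in wild type (SD, n = 3 each), so that the ratio of means was 1.89 and 1.75. Its log2 fold changes were 0.82 (SE 0.13, adjusted p = 0.00229) in aar2-1 and 0.73 (SE 0.13, adjusted p = 0.00531) in aar2-2. CYCB2;4 (AT1G76310, chr1:28627694-28630789, minus strand) had 12.2, 9.70 and 9.68 CPM in aar2-1 and 11.2, 11.5 and 10.7 CPM in aar2-2, against 7.15, 7.14 and 7.77 CPM in wild type. Again no library of either mutant overlapped wild type, with log2 fold changes of 0.46 (adjusted p = 0.00899) in aar2-1 and 0.54 (adjusted p = 0.00583) in aar2-2. The 4 B-type cyclins that did not pass had log2 fold changes of 0.11 to 0.29 in aar2-1 and 0.13 to 0.33 in aar2-2.

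Many G2/M genes of plants carry mitosis-specific activator elements, which MYB3R transcription factors bind and whose core is AACGG. The 300 bases before the annotated start of each gene (TAIR10.1 build, read 5′ to 3′ on the strand of the gene) were searched for AACGG on both strands, where the other strand reads CCGTT. The motif was present in 7 of 8 CYCB windows (87.5%), against 24.1% of 22766 windows of all listed genes, and 6 of 8 held at least 2 matches, against 4.82% of all. The 4 called genes held 1 to 4 matches and the 4 others 0 to 3, so the number of matches did not separate them. The windows of the 4 called B-type cyclins are shown, with that of CYCB1;4, the B-type cyclin without a match, for contrast. They are CYCB1;1 at chr4:17624309-17624608 on the minus strand, CYCB1;2 at chr5:1861704-1862003 on the minus strand, CYCB2;3 at chr1:7137829-7138128 on the minus strand, CYCB2;4 at chr1:28630790-28631089 on the minus strand and CYCB1;4 at chr2:11400818-11401117 on the plus strand. Capitals mark the core in either orientation.
CYCB1;1: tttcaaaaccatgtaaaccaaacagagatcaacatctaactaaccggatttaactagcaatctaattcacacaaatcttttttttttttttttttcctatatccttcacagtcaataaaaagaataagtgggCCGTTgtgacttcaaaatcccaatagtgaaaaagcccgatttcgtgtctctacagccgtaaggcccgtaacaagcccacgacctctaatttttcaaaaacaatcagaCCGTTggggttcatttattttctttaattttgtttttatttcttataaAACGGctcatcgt
CYCB1;2: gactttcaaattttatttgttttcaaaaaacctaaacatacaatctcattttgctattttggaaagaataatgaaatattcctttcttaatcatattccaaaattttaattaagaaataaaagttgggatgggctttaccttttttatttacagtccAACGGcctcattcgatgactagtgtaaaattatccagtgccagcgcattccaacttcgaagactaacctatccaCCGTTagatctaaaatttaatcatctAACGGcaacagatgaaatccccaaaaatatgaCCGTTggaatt
CYCB2;3: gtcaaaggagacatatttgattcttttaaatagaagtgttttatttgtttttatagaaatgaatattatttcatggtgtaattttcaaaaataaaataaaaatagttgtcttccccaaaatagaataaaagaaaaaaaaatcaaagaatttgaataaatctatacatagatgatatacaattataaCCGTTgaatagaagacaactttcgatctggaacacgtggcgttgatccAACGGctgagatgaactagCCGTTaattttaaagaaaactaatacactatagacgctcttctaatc
CYCB2;4: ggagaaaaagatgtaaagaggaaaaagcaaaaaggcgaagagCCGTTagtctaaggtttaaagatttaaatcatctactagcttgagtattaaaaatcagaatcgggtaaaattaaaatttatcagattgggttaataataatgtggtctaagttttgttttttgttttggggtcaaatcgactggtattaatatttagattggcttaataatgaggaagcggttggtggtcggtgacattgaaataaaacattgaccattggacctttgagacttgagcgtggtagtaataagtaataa
CYCB1;4: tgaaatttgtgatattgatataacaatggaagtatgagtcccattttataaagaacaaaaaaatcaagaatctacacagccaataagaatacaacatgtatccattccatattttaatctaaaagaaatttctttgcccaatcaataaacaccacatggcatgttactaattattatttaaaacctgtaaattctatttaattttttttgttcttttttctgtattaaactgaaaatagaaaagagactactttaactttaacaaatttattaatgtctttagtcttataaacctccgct
In CYCB1;1 and CYCB1;2 the nearest match ended 8 and 6 bases before the annotated start, in CYCB2;3 42 bases before it, and the single match of CYCB2;4 lay 253 bases before it. Over the whole set, 21 of 42 windows (50.0%) held the core. By class it was in 5 of 7 KRP windows, 4 of 7 CYCA, 2 of 5 SIM/SMR, 1 of 9 CYCD and 1 of 4 CDKB windows, in that of WEE1 and not in that of CDKA;1. KRP1, which was not called, held 6 matches, more than any B-type cyclin.

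**Figure D2:**
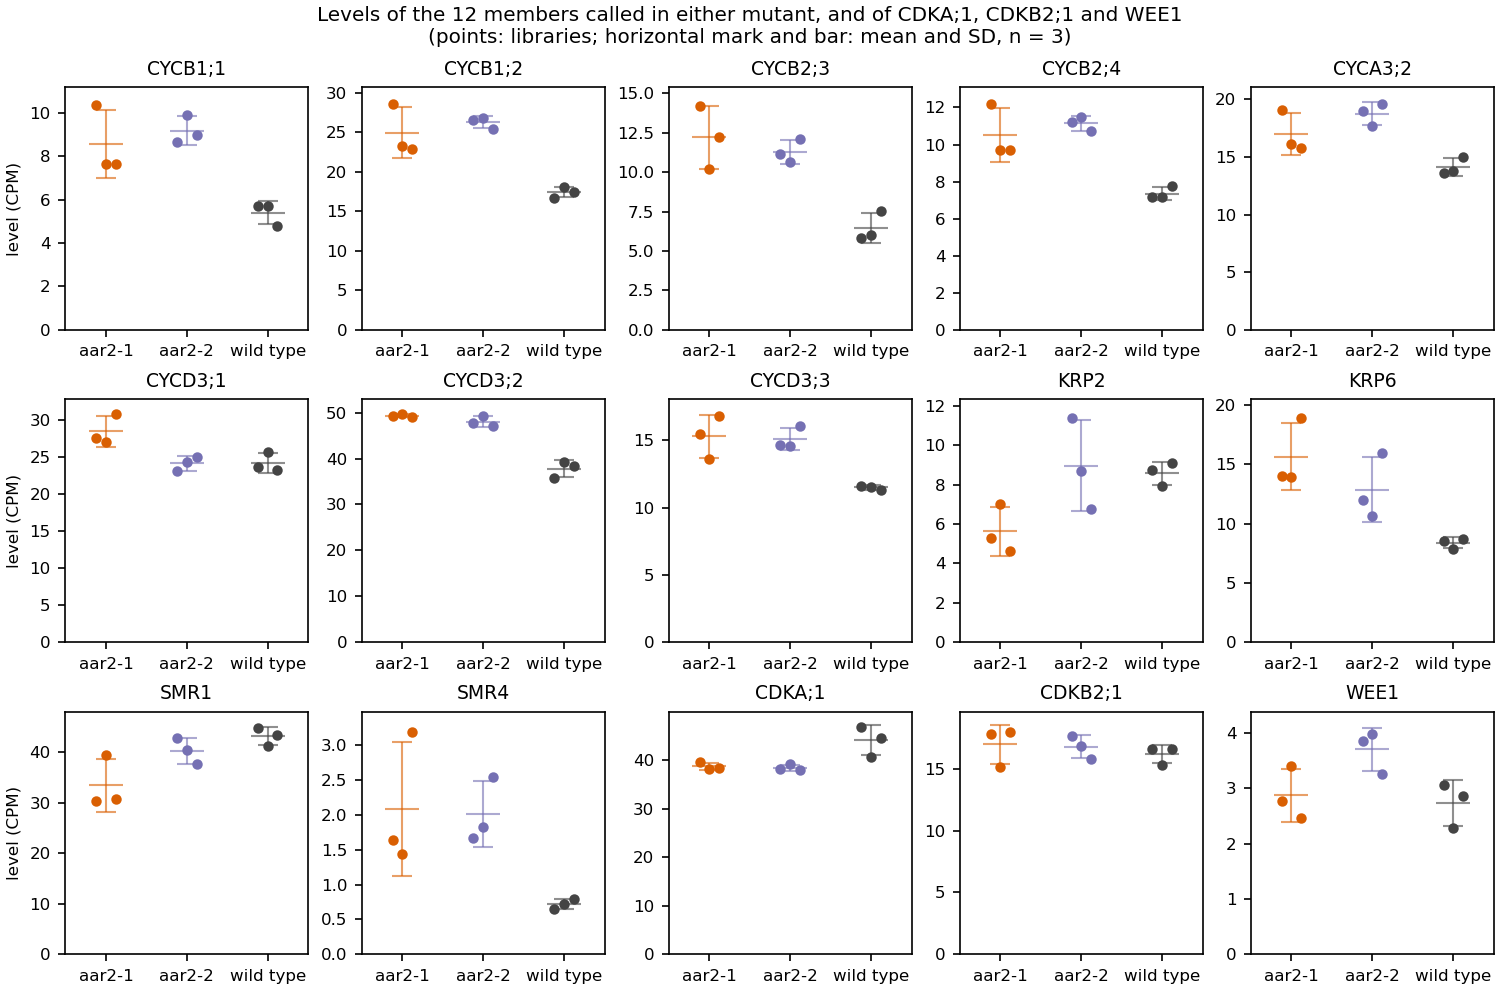
Level in CPM of the 12 members called in either mutant, and of CDKA;1, CDKB2;1 and WEE1, with a point for each library and a horizontal mark and bar for the mean and SD of 3 libraries. For CYCB1;1, CYCB1;2, CYCB2;3, CYCB2;4, CYCA3;2, CYCD3;2, CYCD3;3, KRP6 and SMR4 all 6 mutant libraries lie above the 3 wild-type libraries.

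A-type cyclins act between S phase and mitosis. None of the 6 tested CYCA genes passed the test in aar2-1 with limma, where 1 had an unadjusted p under 0.05. Among all tested genes, 25.1% passed in aar2-1 and 21.5% in aar2-2, and so few genes cannot be set apart from these shares. On recovered reads, edgeR called 1 of them and DESeq2 none. In aar2-2 only CYCA3;2 (AT1G47210, chr1:17300691-17302914, plus strand) passed under the main settings, and DESeq2 and the fit of the 2 groups alone also called CYCA1;1. CYCA3;2, an S-phase cyclin and the A-type cyclin with the highest level per kilobase, had 19.1, 16.1 and 15.7 CPM in aar2-1 and 19.0, 17.7 and 19.6 CPM in aar2-2, against 13.6, 13.8 and 15.0 CPM in wild type. The libraries of both mutants lay above wild type, with a log2 fold change of 0.38 (SE 0.09, adjusted p = 0.0143) in aar2-2 and of 0.24 (SE 0.09, adjusted p = 0.0645) in aar2-1, where TMM scaling and edgeR brought it past the threshold. Without wild-type replicate 1 the value in aar2-2 missed the threshold (adjusted p = 0.0570). The summed level of the 7 CYCA genes averaged 58.5 ± 7.52 CPM in aar2-1 and 63.3 ± 2.07 CPM in aar2-2, against 50.2 ± 4.02 CPM in wild type (SD, n = 3 each). The libraries of aar2-1 overlapped those of wild type in this sum and those of aar2-2 did not. CYCA2;1, under the level for testing, had 0.511 to 1.06 CPM in aar2-1 and 0.726 to 0.772 CPM in aar2-2, against 0.144 to 0.490 CPM in wild type.

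Among the D-type cyclins, which tie entry into the cycle to hormones and sugar, the genes that passed the test belonged to the CYCD3 subfamily. CYCD3 cyclins respond to cytokinin and keep leaf cells dividing before they turn to endoreduplication. CYCD3;2 (AT5G67260, chr5:26836139-26839597, plus strand) was the D-type cyclin with the highest level per kilobase (25.4 CPM per kb in wild type). It had 49.3, 49.7 and 49.1 CPM in aar2-1 and 47.8, 49.3 and 47.0 CPM in aar2-2, against 35.7, 39.4 and 38.4 CPM in wild type. The mutant libraries were tightly grouped above those of wild type, with log2 fold changes of 0.38 (SE 0.06, adjusted p = 0.00223) in aar2-1 and 0.34 (SE 0.06, adjusted p = 0.00485) in aar2-2. Its exons share 6.1% of their length with AT5G67265 on the other strand, which had at most 0.145 CPM. CYCD3;3 (AT3G50070, chr3:18565134-18566834, minus strand) had 15.5, 13.6 and 16.8 CPM in aar2-1 and 14.7, 14.6 and 16.1 CPM in aar2-2, against 11.6, 11.5 and 11.3 CPM in wild type. Both mutants lay above wild type without overlap, with log2 fold changes of 0.38 (adjusted p = 0.0118) in aar2-1 and 0.37 (adjusted p = 0.0158) in aar2-2. The call in aar2-2 was lost without aar2-2 replicate 3 (adjusted p = 0.0545) and without wild-type replicate 1.

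CYCD3;1 (AT4G34160, chr4:16357421-16359565, plus strand), the third gene of the subfamily, had 27.6, 27.0 and 30.8 CPM in aar2-1 and 23.1, 24.3 and 25.04 CPM in aar2-2, against 23.7, 25.7 and 23.2 CPM in wild type. Its rise in aar2-1 was small (log2 fold change 0.22, SE 0.07, adjusted p = 0.0482) and missed the threshold in 14 of 17 alternatives. In aar2-2 it overlapped wild type (log2 fold change -0.00, adjusted p = 0.985). The difference of aar2-2 from aar2-1 was -0.23 and was not called (adjusted p = 0.226). The other 5 tested CYCD genes did not pass in either mutant with limma. Their log2 fold changes in aar2-1 and aar2-2 were 0.34 and 0.33 for CYCD4;1, 0.24 and 0.33 for CYCD5;1, and -0.00 and 0.26 for CYCD1;1. Those of CYCD2;1 were -0.24 and -0.25, and those of CYCD6;1 were 0.03 and -0.08. The values of CYCD4;1 were thus close to those of CYCD3;2 and CYCD3;3. Of the 5 genes, CYCD2;1 was lower in aar2-2 with edgeR and with DESeq2, and in both mutants without wild-type replicate 2. CYCD7;1, which is known from the stomatal lineage, lay between 0.0409 and 0.556 CPM in all libraries. The 9 CYCD genes together averaged 149.8 ± 4.33 CPM in aar2-1 and 148.9 ± 4.43 CPM in aar2-2, against 130.6 ± 2.81 CPM in wild type (SD, n = 3 each).

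**Figure D3:**
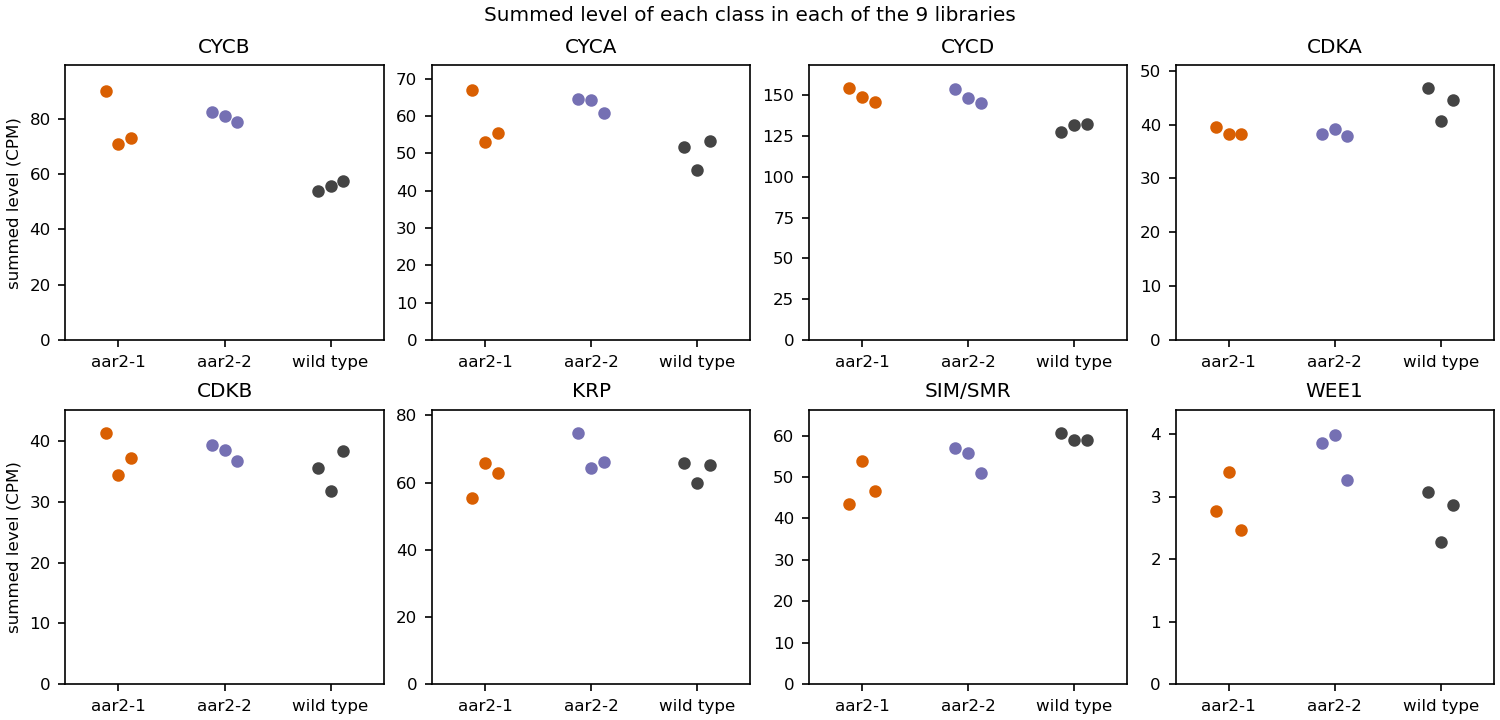
Summed CPM of the genes of each class in each of the 9 libraries, with 1 point per library. The CYCB and CYCD sums of all 6 mutant libraries lie above the 3 wild-type libraries, CDKA lies below them, and the CDKB sums of the 3 genotypes overlap.

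None of the 5 kinase genes passed the test in either mutant, where 25.1% of all tested genes did in aar2-1 and 21.5% in aar2-2. With so few genes this does not set them apart. CDKA;1 (AT3G48750, chr3:18071454-18074641, plus strand), the kinase that acts with cyclins throughout the cycle, had 39.6, 38.2 and 38.3 CPM in aar2-1 and 38.2, 39.1 and 37.9 CPM in aar2-2, against 46.8, 40.7 and 44.6 CPM in wild type. All 6 mutant libraries were below wild type, where 21.8% of all tested genes lay wholly below wild type in aar2-1 and 19.2% in aar2-2. The log2 fold changes, -0.18 in aar2-1 (SE 0.06, adjusted p = 0.0620) and -0.19 in aar2-2 (SE 0.06, adjusted p = 0.0561), missed the threshold. With TMM scaling, quantile normalization and edgeR the gene was called lower in both mutants, and with DESeq2 in aar2-2, and without wild-type replicate 2 it was called in both.

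None of the 4 CDKB genes, the plant-specific kinases that peak between S phase and mitosis, was called in either mutant with limma, edgeR or DESeq2, and none had an unadjusted p under 0.05. With limma, 25.1% of all tested genes were called in aar2-1 and 21.5% in aar2-2. CDKB2;1 (AT1G76540, chr1:28720328-28722550, minus strand), the one with the highest level per kilobase, had 17.8, 15.2 and 18.0 CPM in aar2-1 and 17.7, 16.9 and 15.8 CPM in aar2-2, against 16.6, 15.3 and 16.6 CPM in wild type. The 3 genotypes overlapped. The log2 fold change was 0.06 in aar2-1 (95% confidence interval -0.12 to 0.25) and 0.05 in aar2-2 (-0.14 to 0.23). Over the 4 genes the fold changes ran from 0.03 to 0.17 in aar2-1 and from 0.03 to 0.24 in aar2-2.

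The KRP inhibitors moved in different directions. KRP6 (AT3G19150, chr3:6616330-6617951, minus strand), known for its removal by the ubiquitin ligase subunit FBL17 during pollen development, rose in both mutants. It had 14.0, 14.0 and 18.9 CPM in aar2-1 and 12.01, 10.6 and 15.9 CPM in aar2-2, against 8.54, 7.83 and 8.71 CPM in wild type. The mutant libraries were above wild type without overlap and spread more widely. Its log2 fold change was 0.82 in aar2-1 (SE 0.15, adjusted p = 0.00489), a call that held under every alternative, and 0.55 in aar2-2 (SE 0.15, adjusted p = 0.0286), a call that was lost in 5 of the 9 fits that left out a library, those without aar2-2 replicate 1, aar2-2 replicate 3 or any wild-type replicate.

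KRP2 (AT3G50630, chr3:18800306-18801595, plus strand), which limits division at the G1 stage and in lateral root founder cells, had 5.29, 6.99 and 4.5998 CPM in aar2-1 and 11.4, 8.69 and 6.78 CPM in aar2-2, against 8.74, 7.94 and 9.07 CPM in wild type. It fell in aar2-1 (log2 fold change -0.55, SE 0.17, adjusted p = 0.0433), and this call was lost in 7 of 17 alternatives. In aar2-2 its libraries spread on both sides of wild type (log2 fold change 0.03, adjusted p = 0.918). The difference of aar2-2 from aar2-1, 0.58, was not called (adjusted p = 0.206). KRP1 (AT2G23430, chr2:9976590-9978090, minus strand), the KRP gene with the highest level per kilobase in wild type, had 12.9, 16.1 and 15.3 CPM in aar2-1 and 19.97, 17.0 and 17.1 CPM in aar2-2, against 17.1, 14.3 and 16.0 CPM in wild type. Both mutants overlapped wild type, and neither log2 fold change was called (-0.09 and 0.18). The fold changes of KRP3, KRP4, KRP5 and KRP7 lay between -0.33 and 0.02 in aar2-1 and between -0.28 and 0.23 in aar2-2 without passing the test. All mutant libraries of KRP4 lay below wild type (adjusted p = 0.0506 in aar2-1 and 0.0886 in aar2-2), where 21.8% and 19.2% of all tested genes did. In aar2-2 the libraries of KRP3, KRP5 and KRP7 lay above wild type, where 25.1% of all tested genes did. With TMM scaling KRP4 was lower in both mutants, and 38.7% of its transcript overlaps a gene on the other strand. The 7 KRP genes together gave 61.3 ± 5.24 CPM in aar2-1 and 68.4 ± 5.56 CPM in aar2-2, against 63.6 ± 3.37 CPM in wild type (SD, n = 3 each).

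Among the SIM/SMR genes of the set, SMR4 rose in both mutants and SMR1 fell in aar2-1. SIAMESE (SIM) is known for stopping division in leaf hairs, and SMR genes for endoreduplication and for arrest after DNA damage. SMR4 (AT5G02220, chr5:441452-442187, minus strand), a low transcript with 16 to 100 reads per library, had 1.637, 1.44 and 3.19 CPM in aar2-1 and 1.67, 1.83 and 2.55 CPM in aar2-2, against 0.654, 0.722 and 0.798 CPM in wild type. All mutant libraries were above wild type, and the ratio of means was 2.89 in aar2-1 and 2.78 in aar2-2. Adding 1 CPM before taking logs shrinks the change of so low a gene, and on that scale the log2 fold change was 0.80 in each mutant (SE 0.20, adjusted p = 0.0173 in aar2-1 and 0.0208 in aar2-2). With a pseudocount of 0.1 it was 1.33 in aar2-1 and 1.34 in aar2-2. The call was lost without wild-type replicate 1 in aar2-1 (adjusted p = 0.0620), and in aar2-2 without aar2-2 replicate 3, wild-type replicate 1 or wild-type replicate 2.

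SMR1 (AT3G10525, chr3:3281306-3282131, minus strand), also known as LGO for the giant sepal cells it promotes, had the highest level per kilobase of all 42 genes, at 40.5 CPM per kb in aar2-1 and 48.8 in aar2-2, against 52.2 in wild type. Its levels were 30.3, 39.5 and 30.6 CPM in aar2-1 and 42.8, 40.4 and 37.6 CPM in aar2-2, against 44.7, 41.2 and 43.4 CPM in wild type. The 3 aar2-1 libraries were below wild type and those of aar2-2 overlapped it, with log2 fold changes of -0.37 (SE 0.10, adjusted p = 0.0252) in aar2-1 and -0.10 (adjusted p = 0.512) in aar2-2. The call in aar2-1 was lost in 4 fits that left out a library. The transcript shares 40.3% of its length with AT3G10527 on the other strand, which moved by -0.36 in aar2-1 (adjusted p = 0.0236) and -0.10 in aar2-2. No source used here says that strand was used in counting, so it is not known whether reads of this pair were told apart.

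SMR5 (AT1G07500, chr1:2304766-2305031, minus strand), an inhibitor known to be induced by SOG1 after DNA damage and oxidative stress, lay under the level for testing. It had 0.341, 0.446 and 0.224 CPM in aar2-1 and 0.463, 0.145 and 0.510 CPM in aar2-2, against 0.368, 0.253 and 0.218 CPM in wild type. The groups overlapped, at 5 to 18 reads per library, and its whole annotated transcript lies within exons of AT1G07510 on the other strand (48.1 to 62.6 CPM). The SOG1 binding motif, CTT and AAG with 7 bases of any kind between them, was found in 8 of 42 windows (19.0%), against 11.0% of all windows, among them those of SMR4 (1 match, chr5:442188-442487, minus strand) and SMR5 (2 matches, chr1:2305032-2305331, minus strand, a window that overlaps another gene). The CYCB1;1 window held no match. These 2 windows are shown because SMR4 rose and SMR5 is the better known target of SOG1. Capitals mark the SOG1 motif and, in SMR4, also the AACGG core.
SMR4: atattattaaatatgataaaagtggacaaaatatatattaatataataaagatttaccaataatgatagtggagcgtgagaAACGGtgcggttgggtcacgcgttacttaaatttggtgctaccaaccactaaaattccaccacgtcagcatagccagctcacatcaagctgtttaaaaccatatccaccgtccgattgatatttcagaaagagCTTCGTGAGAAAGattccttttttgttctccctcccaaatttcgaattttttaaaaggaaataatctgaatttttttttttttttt
SMR5: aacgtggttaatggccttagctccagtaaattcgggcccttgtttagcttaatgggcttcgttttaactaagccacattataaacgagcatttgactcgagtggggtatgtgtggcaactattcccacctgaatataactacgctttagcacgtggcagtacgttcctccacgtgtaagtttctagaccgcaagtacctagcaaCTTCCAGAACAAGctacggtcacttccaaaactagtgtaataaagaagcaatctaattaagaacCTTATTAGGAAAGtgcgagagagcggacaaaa
SMR4 and SMR5 both carry the motif, and the first was called in both mutants while the second was under the level for testing. The level of SMR5 is uncertain, since no source used here says that strand was used in counting and AT1G07510 overlaps all of it. SIM and AT1G08180, the other family members in the set, moved by -0.22 and -0.49 on the log2 scale in aar2-1 and -0.28 and -0.41 in aar2-2, of which none passed the test. All mutant libraries of SIM lay below wild type, as did those of AT1G08180 in aar2-1. Of all tested genes, 21.8% lay wholly below wild type in aar2-1 and 19.2% in aar2-2. Exons of SIM share 31.4% of their length with AT5G04475 on the other strand. The 5 genes together averaged 48.0 ± 5.42 CPM in aar2-1 and 54.6 ± 3.19 CPM in aar2-2, against 59.5 ± 0.910 CPM in wild type (SD, n = 3 each), and SMR1 made up most of that sum. E2F motifs (TTTCCCGC or TTTGGCGC, either strand) were found in 1 of 42 windows, that of CYCD3;3, against 1.1% of all windows.

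WEE1 (AT1G02970, chr1:673306-676419, plus strand) had 2.76, 3.39 and 2.46 CPM in aar2-1 and 3.86, 3.98 and 3.26 CPM in aar2-2, against 3.06, 2.27 and 2.87 CPM in wild type. The libraries of aar2-1 overlapped wild type and those of aar2-2 lay above it. Neither log2 fold change was called, at 0.05 (adjusted p = 0.802) in aar2-1 and 0.33 (SE 0.13, adjusted p = 0.0892) in aar2-2.

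**Figure D4:**
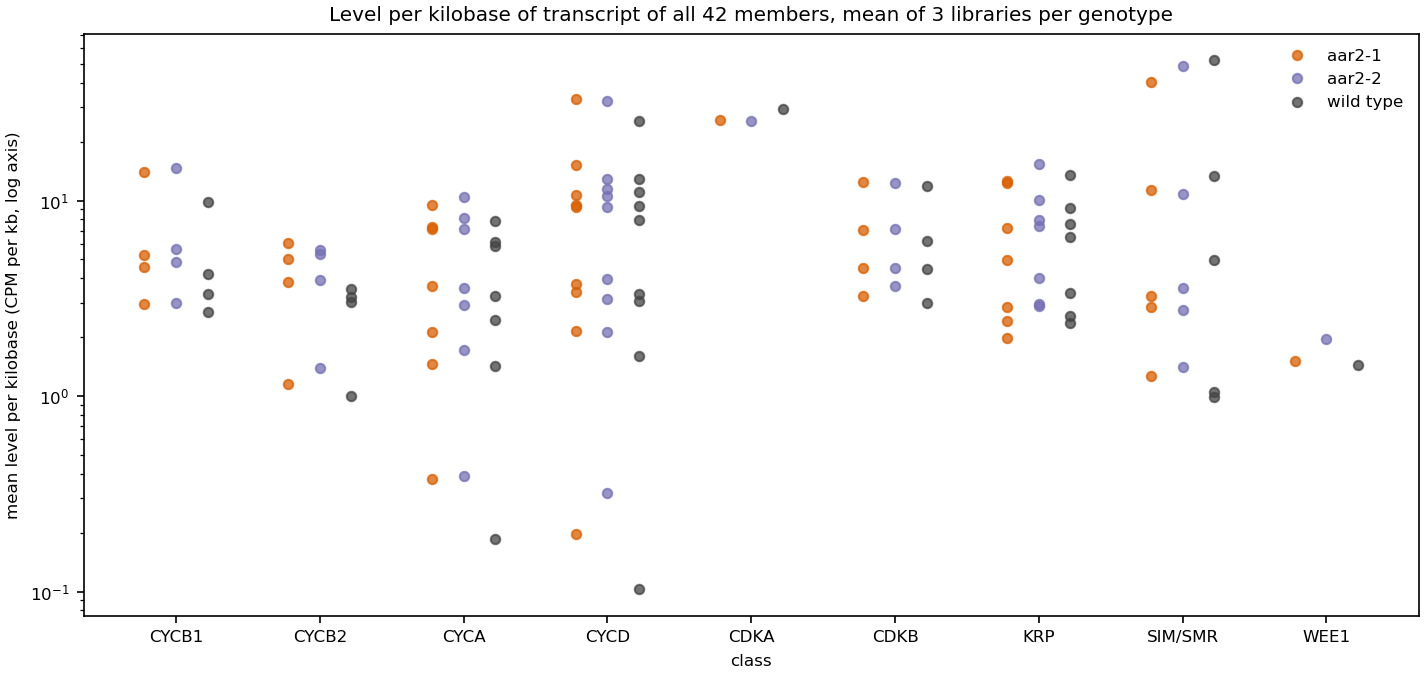
Mean level per kilobase of transcript (CPM per kb, log axis) of all 42 members by class, with 1 point per gene and genotype. SMR1, CDKA;1 and CYCD3;2 stand highest in every genotype, at 52.2, 29.4 and 25.4 CPM per kb in wild type, and CYCD7;1 and CYCA2;1 lowest. The SMR1 transcript shares 40.3% of its length with AT3G10527 on the other strand.

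Per kilobase of transcript, the 42 genes spanned 0.196 to 40.5 CPM per kb in aar2-1 and 0.318 to 48.8 in aar2-2, against 0.103 to 52.2 in wild type. CDKA;1 had 25.8 CPM per kb in aar2-1 and 25.6 in aar2-2, against 29.4 in wild type. CYCD3;2 had 33.2 in aar2-1 and 32.3 in aar2-2, against 25.4 in wild type, so that it stood above CDKA;1 in the mutants and below it in wild type. The mitotic partners were lower: CDKB2;1 had 11.8 CPM per kb and CYCB1;2 had 9.78 CPM per kb in wild type. These levels are means over the whole seedling sample and do not show which cells hold the transcripts.

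The alleles were also compared directly. Between aar2-2 and aar2-1, 0 of 39 members were called with limma, edgeR or DESeq2, and with limma 0.0212% of all tested genes were called, 0.00531% higher and 0.0159% lower. At an unadjusted p under 0.05 there were 7 members, and the share of all tested genes at that level was not counted. The largest differences, each of aar2-2 minus aar2-1, were those of KRP2 (0.58, 95% confidence interval 0.19 to 0.96) and KRP7 (0.43, 0.08 to 0.78). For the B-type cyclins the interval was -0.17 to 0.37 for CYCB1;1 and -0.38 to 0.19 for CYCB2;3.

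Other genes of the same machinery were read from lists by role, chosen with earlier results known. Of 15 genes of mitosis, 5 passed the test in aar2-1 and 6 in aar2-2, all of them higher (33.3% and 40.0%, where 11.5% and 12.1% of all tested genes were higher). KNOLLE (KN), the syntaxin of the cell plate, had 40.0, 34.3 and 36.2 CPM in aar2-1 and 40.8, 40.5 and 36.8 CPM in aar2-2, against 22.4, 24.5 and 25.9 CPM in wild type. Its log2 fold change was 0.58 (adjusted p = 0.00149) in aar2-1 and 0.68 (adjusted p = 0.00113) in aar2-2. MAP65-3, which bundles microtubules of the phragmoplast, rose by 0.42 in each mutant (adjusted p = 0.00710 and 0.00896), and the Aurora kinase gene AUR1 by 0.53 and 0.64 (adjusted p = 0.0167 and 0.0102). Exons of KN share 33.5% of their length with AT1G08550 on the other strand, and those of AUR1 share 19.2% with AT4G32840. Whether strand was used in counting is not known here. KN and MAP65-3 were called without each library in turn, whereas the count over the list fell to 3 without aar2-1 replicate 1 in aar2-1 and to 3 without aar2-2 replicate 1 or 2 in aar2-2, and in both mutants to 3 without wild-type replicate 1 or 2. In aar2-1 it was also 3 without wild-type replicate 3. Among the 4 MYB3R genes, which regulate G2/M transcription, MYB3R3 (0.36 and 0.39, adjusted p = 0.0130 and 0.0105) and MYB3R4 (0.33 and 0.34, adjusted p = 0.0236 and 0.0246) rose in aar2-1 and aar2-2. That is 50.0% of this short list in each mutant, where 11.5% and 12.1% of all tested genes were higher. MYB3R4 lost its call in both mutants without any 1 wild-type library, in aar2-1 without aar2-1 replicate 1, and in aar2-2 without any 1 of its own libraries.

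Of 19 genes of DNA replication, 2 were called in aar2-1 (MCM5 and ICU2) and 8 in aar2-2, all higher. These are 10.5% and 42.1% of the list, where 11.5% and 12.1% of all tested genes were higher, so the share in aar2-1 is near the background. MCM5, a subunit of the replicative helicase, rose by 0.33 in aar2-1 (adjusted p = 0.0238) and 0.53 in aar2-2 (adjusted p = 0.00448). TSO2, a ribonucleotide reductase subunit, and MCM3 rose in aar2-2 by 0.42 (adjusted p = 0.0125) and 0.41 (adjusted p = 0.0171). Their log2 fold changes in aar2-1 were 0.10 and 0.28. The difference between the mutants was not called for any of the 19 genes with limma, edgeR or DESeq2. With limma 6 of these genes had an unadjusted p under 0.05, and the share of all tested genes at that level was not counted. The count in aar2-2 was 2 to 3 without aar2-2 replicate 1, aar2-2 replicate 2, wild-type replicate 1 or wild-type replicate 2, and that in aar2-1 was 0 without aar2-1 replicate 1 or any wild-type replicate, and 1 without aar2-1 replicate 2, aar2-2 replicate 2 or aar2-2 replicate 3. In the RBR and E2F list, 1 of 9 genes, the E2F partner DPA, rose in both mutants (0.40 and 0.48, adjusted p = 0.0101 and 0.00627), while RBR1 was not called. That is 11.1% of the list in each mutant, near the 11.5% and 12.1% of all tested genes that were higher.

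Of 5 genes of CDK-activating kinases, CDKF;1, which phosphorylates the other activating kinases, fell in both mutants, where 13.6% and 9.4% of all tested genes were lower. It had 16.0, 16.9 and 20.19 CPM in aar2-1 and 16.6, 17.0 and 16.8 CPM in aar2-2, against 22.8, 23.5 and 23.3 CPM in wild type, with log2 fold changes of -0.38 (adjusted p = 0.0112) and -0.45 (adjusted p = 0.00724). No mutant library reached the wild-type range. Of 6 regulators of the anaphase-promoting complex, CCS52A2, an activator known for promoting endoreduplication, was lower in aar2-1 (-0.31, adjusted p = 0.0437), a call lost in most alternatives, edgeR and DESeq2 among them. That is 16.7% of the list, near the 13.6% of all tested genes that were lower in aar2-1. In aar2-2 none of the 6 was called with limma, edgeR or DESeq2, and none had an unadjusted p under 0.05. With limma, 21.5% of all tested genes were called in aar2-2.

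In the DNA damage checkpoint list, 4 of 8 tested genes passed in each mutant, all higher, where 11.5% and 12.1% of all tested genes were higher in aar2-1 and aar2-2. NAC044, a transcription factor of the SOG1 pathway known for arrest in G2, had 12.4, 12.4 and 10.2 CPM in aar2-1 and 12.4, 11.9 and 15.7 CPM in aar2-2, against 0.572, 1.33 and 0.798 CPM in wild type. No library of either mutant came near the wild-type range, and the fold changes exceeded that of every tested cyclin, kinase and inhibitor gene, with log2 values of 2.75 (adjusted p = 6.66e-05) and 2.92 (adjusted p = 1.22e-05). PARP2, a poly(ADP-ribose) polymerase gene, rose by 0.86 and 0.84 (adjusted p = 0.000808 and 0.00118) and BRCA1, of homologous recombination, by 0.51 and 0.60 (adjusted p = 0.0333 and 0.0200). SOG1 itself was not called (-0.19 and -0.04). NAC044 and PARP2 were called without each library in turn. The count was 2 in aar2-1 without aar2-1 replicate 1 or 3, aar2-2 replicate 2, or wild-type replicate 1 or 2, and 2 in aar2-2 without aar2-2 replicate 2 or 3, or wild-type replicate 1 or 2.

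**Figure D5:**
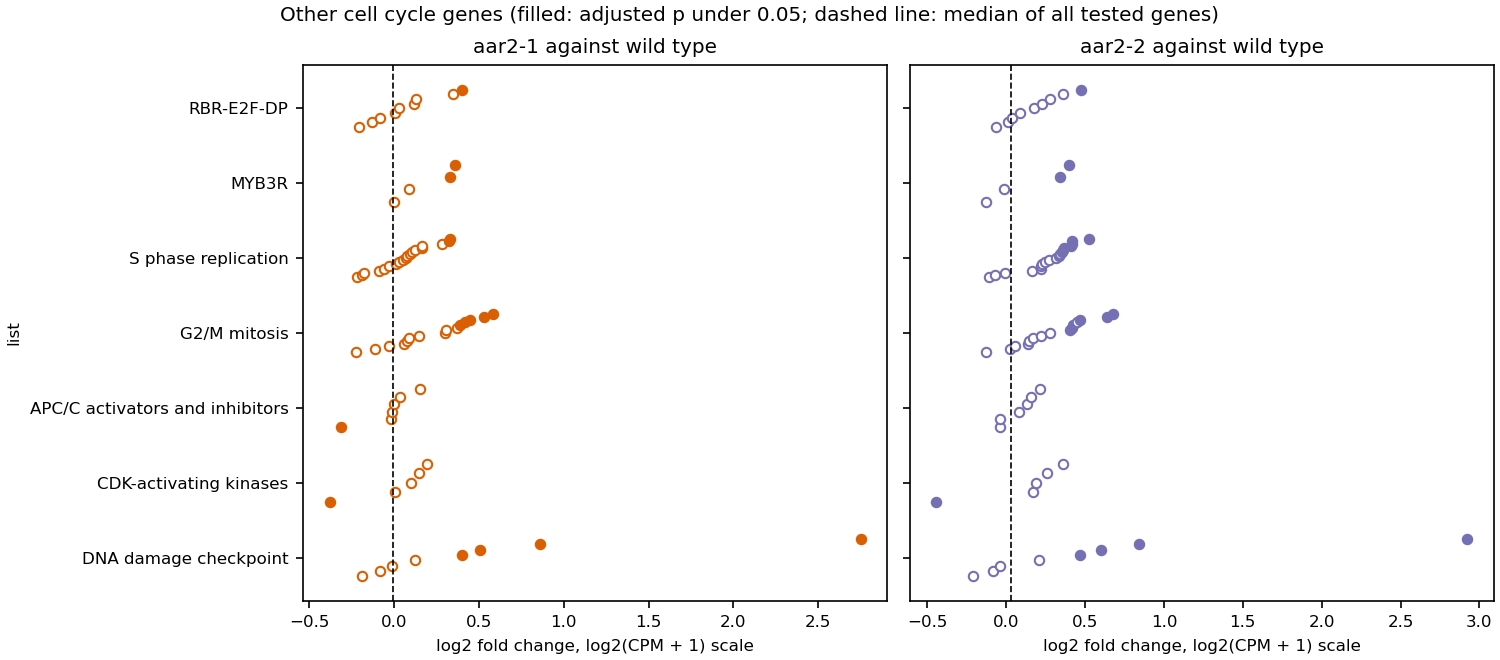
Log2 fold change, on the log2(CPM + 1) scale, of other cell cycle genes by list in aar2-1 (left) and aar2-2 (right) against wild type; filled points passed an adjusted p of 0.05 and the dashed line is the median of all tested genes. The filled points of the mitosis, MYB3R, replication and DNA damage lists lie to the right of the line, with NAC044 at 2.75 and 2.92, and that of CDKF;1 to the left.

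Markers of the cell types that the samples can hold were set beside these changes. Of the 6 shoot meristem genes, STM, CLV1, KNAT1 and ANT were tested and none was called with limma (none had an unadjusted p under 0.05), and the summed level was 99.7 to 105 CPM in aar2-1 and 95.5 to 103 CPM in aar2-2, against 94.6 to 106 CPM in wild type. Among all tested genes, 25.1% were called in aar2-1 and 21.5% in aar2-2. WUS and CLV3 lay at or below 0.206 CPM. Among the 5 stomatal lineage genes, EPF2 was higher in aar2-2 (0.48, adjusted p = 0.0425), and the sums overlapped between genotypes (45.4 to 56.9 CPM in aar2-1 and 51.1 to 64.5 CPM in aar2-2, against 54.3 to 59.6 CPM in wild type). Of the 3 leaf genes, LHCB1.1 (-1.03, adjusted p = 0.0105) and LHCB2.1 (-0.91, adjusted p = 0.0150) were lower in aar2-2. In aar2-1 all libraries of both were also below wild type, and their log2 fold changes of -0.58 and -0.61 missed the threshold (adjusted p = 0.0717 and 0.0565). RBCS1A, the third leaf gene, lay above wild type in every library of both mutants, but neither value was called (0.22 with adjusted p = 0.261 in aar2-1, 0.31 with adjusted p = 0.133 in aar2-2, on the log2 scale). The 5 root meristem genes, PLT1, PLT2, WOX5, SHR and SCR, summed to 51.4 to 60.8 CPM in aar2-1 and 58.2 to 63.0 CPM in aar2-2, against 62.5 to 64.0 CPM in wild type, nearly all of it from SHR and SCR, and neither of these was called. The 3 flower genes AP1, AP3 and AG were too low to test, with sums of 1.09 to 2.52 CPM in aar2-1 and 1.16 to 1.48 CPM in aar2-2, against 0.286 to 0.433 CPM in wild type. The part of any of these in the cyclin changes was not tested.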

How the data were processed

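The authors deposited 1 table per library of CPM values (reads per gene scaled to the reads counted in the library). Per the submitters' processing notes, which name tools without their roles, the build was TAIR10 and the tools were featureCounts and DESeq2; whether strand was used is not given in the sources used here. Multiples of the value of 1 read gave back whole reads for 99.8603% to 100.0% of values per library (tolerance 0.01), and the sums of these reads are the depths given. Genes averaging at least 1 CPM (18838 of 22903) were tested with limma 3.58.1 in R 4.3.3 on log2(CPM + 1), all 9 libraries in 1 fit, with Benjamini-Hochberg adjustment over all tested genes and a threshold of 0.05. Every adjusted p in the text comes from this fit unless another setting is named. The alternatives were TMM scaling, quantile normalization, the count tests edgeR 4.0.16 (quasi-likelihood) and DESeq2 1.42.0 run on whole reads so obtained, no filter, a pseudocount of 0.1, the compared groups alone, a replicate block and leaving out each library. On these reads edgeR called 5038 genes in aar2-1, 4372 in aar2-2 and 8 between the mutants. Sequences and gene positions come from RefSeq on TAIR10.1, matched by locus code (22767 of 22903 codes). Members and lists were chosen with earlier results of these data known. Values per library are given for each member called in either mutant, for CYCB1;1, CDKA;1, SMR5 and WEE1 and for the member with the highest level per kilobase of each class, and from each other list up to 3 genes with the lowest adjusted p are named, most of them by fold change alone. RBR1, SOG1, SIM, AT1G08180, the other KRP genes and the marker genes are named outside this rule, after their values were seen.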

Additional observations from a re-analysis of the deposited data

How the results depend on the processing

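In 9 fits that each left out 1 library, 7 to 14 members were called in aar2-1 and 5 to 11 in aar2-2, against 11 and 9 with all libraries; both low counts were those without wild-type replicate 1, and without aar2-2 replicate 3 the count in aar2-2 was 6. The other alternatives gave 9 to 13 in aar2-1 and 9 to 12 in aar2-2. Over all genes, the left-out libraries gave 2341 to 4688 calls in aar2-1 (4732 with all), 1746 to 4691 in aar2-2 (4046 with all) and 3 to 176 between the mutants (4 with all), with the low counts against wild type again without wild-type replicate 1. Between the mutants edgeR called 8 genes and DESeq2 398. The share of higher calls over all genes in aar2-2 was 56.3% (2276 higher, 1770 lower), and it was 45.6% with TMM scaling (1921 higher, 2289 lower), 48.2% with quantile normalization, 48.0% with edgeR and 47.3% with DESeq2. Of 20 calls of single members against wild type, 12 held under all 17 alternatives. Direction was followed for 32 fold changes, those of the tested members given by library, and not for the other members. It turned for 3 of the 32, which were near 0 and not called: WEE1 in aar2-1 (-0.0439 to 0.1287 over left-out libraries), CYCD3;1 in aar2-2 (-0.0311 to 0.0399) and KRP2 in aar2-2 (-0.1412 to 0.1948, and -0.0045 with TMM scaling). The cause was not tested. Same-numbered libraries did not deviate together throughout (correlations from -0.191 to 0.518), so the numbers were not taken as pairs; with the replicate block, 10 members were called in aar2-1, 9 in aar2-2 and 0 between the mutants, and 4790, 3966 and 12 genes over all. Depth limits SMR4 (16 to 100 reads per library) and SMR5 (5 to 18 reads).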
